A study of Mus musculus with 64 samples.

Results

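Potassium channel genes were followed across 2 brain regions, 2 treatments and 2 times after a single injection of psilocybin or saline. A gene was taken as a member when its row of the count table was protein-coding, its symbol started with Kcn, and its mean level was at least 1 CPM (counts scaled to 1000000 counted reads per library) over the libraries with at least 1000000 counted reads. Of 55401 rows, 21897 were protein-coding and 94 of these carried a Kcn symbol, and 78 of the 94 reached the level. The members fell into 57 pore-forming subunits of the Kcna, Kcnb, Kcnc, Kcnd, Kcnq, Kcnh, Kcnj, Kcnk, Kcnn, Kcnma, Kcnt and Kcnu subfamilies, 9 silent subunits (Kcnf, Kcng, Kcns, Kcnv) and 12 auxiliary subunits (Kcnab, Kcne, Kcnip, Kcnmb). Male C57BL/6J mice, 10 weeks old, were kept in groups on chow. On the 3 days before a study, mice were given sham injections of isotonic saline, per the study's methods. They were then injected once into the peritoneum with psilocybin at 3 mg/kg or with isotonic saline (vehicle). Hypothalamus and prefrontal cortex (PFC, labelled frontal cortex) were taken from each animal 3 h or 4 weeks later. Each of the 8 groups of region, treatment and time held 8 samples, 64 in all from 32 mice, and the animals of the 4 weeks groups were 4 weeks older at harvest than those of the 3 h groups. RNA was measured by sequencing of bulk tissue, in which fewer cells of a type and less RNA per cell cannot be told apart. All 78 members passed the filter on low counts and were tested.

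Potassium channels let potassium ions leave or enter the cell and so set the resting potential, the shape of the action potential and the firing rate of a neuron. Pore-forming subunits assemble around one pore: voltage-gated Kv subunits open on depolarization, inward rectifiers (Kcnj) hold the membrane near rest and some of them answer G proteins or ATP, 2-pore-domain subunits (Kcnk) carry leak current, and Kcnn, Kcnma and Kcnt subunits open with intracellular calcium or sodium. Silent subunits form no channel alone and change the gating of Kv2 channels, and auxiliary subunits change the traffic and gating of Kv1, Kv4, Kv7 and BK channels. Psilocin, formed from psilocybin, acts on serotonin receptors, and neuronal potassium currents are among the conductances that such G protein-coupled receptors are known to modulate.

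Of the 64 libraries, 62 were used, with 8061033 to 70361839 counted reads (median 18287978.5). The 2 left out, 1 of PFC psilocybin 4 weeks and 1 of hypothalamus vehicle 3 h, held 200066 and 211111 reads, so those groups had n = 7. The members together took 0.533% to 0.717% of the counted reads of a PFC library and 0.322% to 0.509% of a hypothalamus library. Markers followed the tissue labels: the summed level of 8 cortical genes was 1440 to 2071 (median 1774) CPM in PFC and 99.8 to 218 (median 137) CPM in hypothalamus, and that of 11 hypothalamic genes was 1.95 to 25.5 (median 4.84) and 461 to 2935 (median 664) CPM. Replicate 5 of hypothalamus psilocybin 4 weeks stood apart, with the highest hypothalamic sum of the 31 hypothalamus libraries, the lowest level of 32 of the 78 members and the highest of 15, whereas the next library held the lowest level of 9. Replicate 7 of PFC psilocybin 3 h held the lowest level of 11 members and the highest of 9. Replicate 6 of PFC vehicle 4 weeks had the highest sum of 7 striatal genes of the PFC libraries, 1633 CPM against at most 692 in the others. The study's methods also set aside a sample rich in wound healing and immune transcripts, and which one is not given in the sources used here, so it was not left out. The sum of 8 such genes was highest in replicate 6 of hypothalamus vehicle 4 weeks, at 197 CPM against at most 109.7 in the other hypothalamus libraries, and in PFC it was highest in replicate 5 of psilocybin 3 h, at 132 CPM against at most 98.7. These last 3 libraries were left out in turn as alternatives chosen after seeing the data. The sum of 6 thalamic genes was 86.3 to 152 (median 119) CPM in PFC and 430.2 to 928 (median 737) CPM in hypothalamus, with all 6 called higher in hypothalamus (median log2 fold change -3.58), and the part of thalamic tissue in the members' differences between regions was not tested.

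Levels per length were first set side by side, as CPM divided by the gene's exon length in kilobases (RPKM, mean ± SD over the 31 samples of a region). Members ranged from 0.072 to 73.8 RPKM in PFC (median 6.15) and from 0.215 to 109.8 RPKM in hypothalamus (median 4.91). The 10 highest members held 44.3% of the summed RPKM of all members in PFC and 47.3% in hypothalamus, and 6 genes were among the 10 in both. In both regions the highest auxiliary subunit was Kcnab2, a cytoplasmic beta subunit of Kv1 channels, at 73.8 ± 9.72 RPKM in PFC, the top member there, and 33.6 ± 4.04 in hypothalamus. The top member in hypothalamus was Kcnj10 (109.8 ± 14 RPKM, against 52.6 ± 6.36 in PFC), the inward rectifier of astrocytes and oligodendrocytes that clears extracellular potassium.

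**Figure D1:**
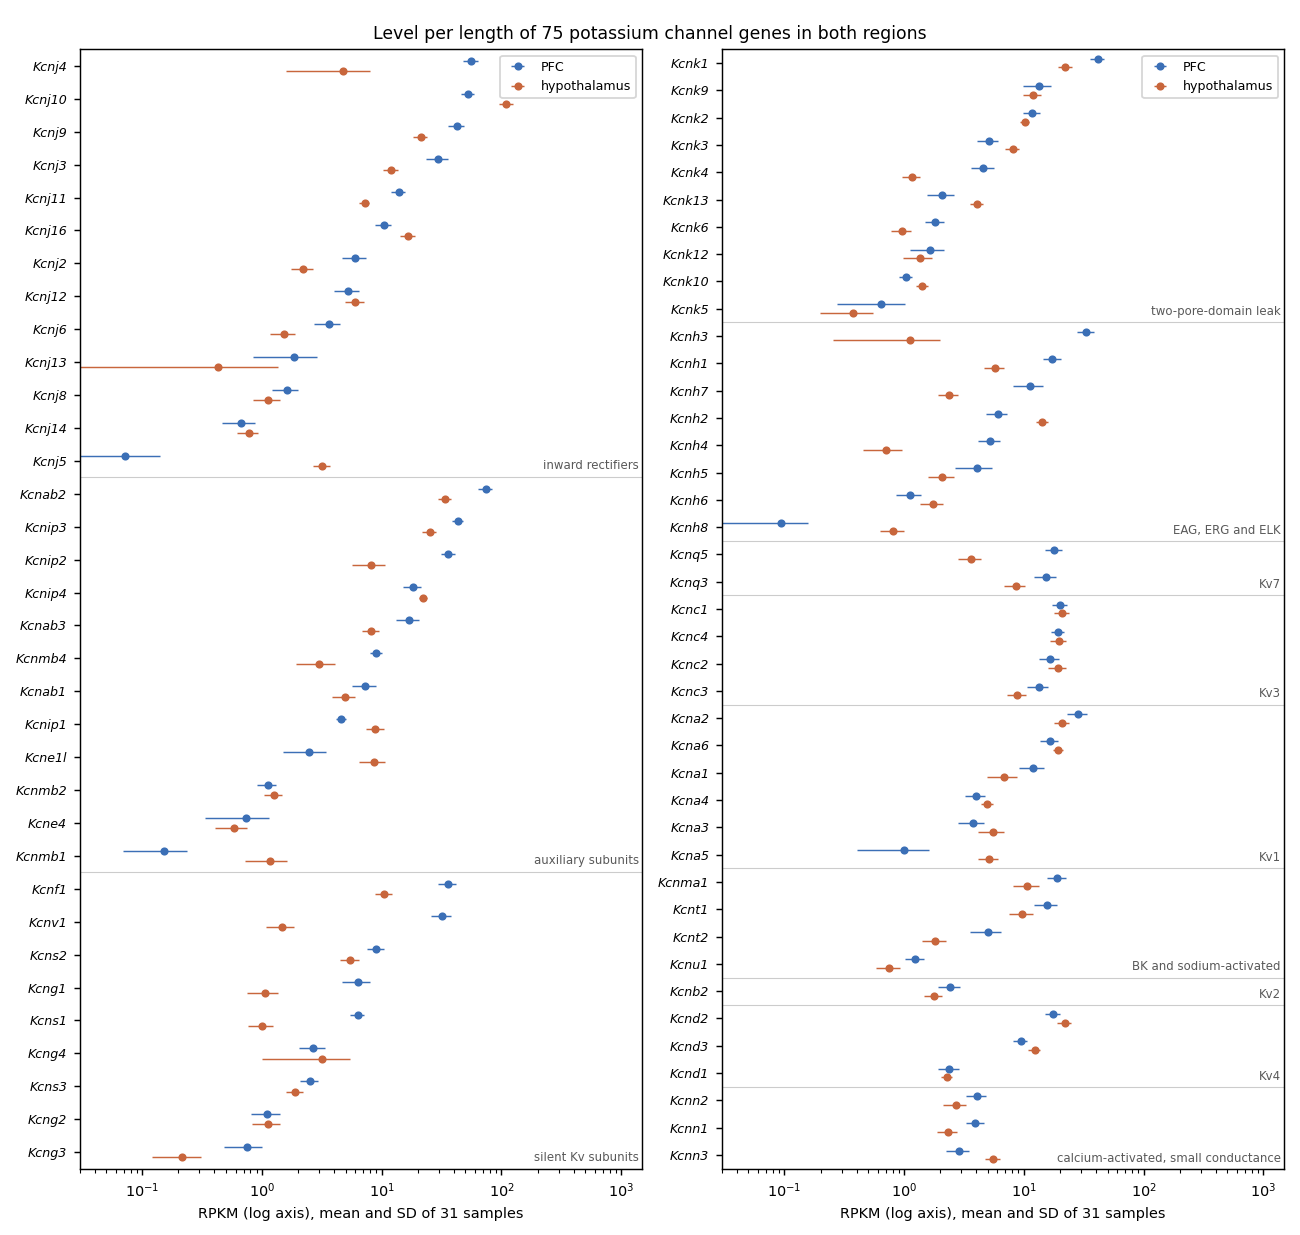
Level of 75 of the 78 members in PFC (blue) and hypothalamus (orange), grouped by subfamily and sorted by the PFC level, as mean RPKM with SD over 31 samples per region on a log axis. The widest gaps between the regions belong to Kcnj5, Kcnh3, Kcnv1, Kcnj4 and Kcnh8, and the medians over all 78 members are 6.15 RPKM in PFC and 4.91 RPKM in hypothalamus.

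Among voltage-gated subunits, Kcna2, an axonal Kv1 subunit, led its subfamily with 28.5 ± 5.41 RPKM in PFC and 20.8 ± 2.92 in hypothalamus, where its mean and SD overlapped those of Kcna6 (19.3 ± 1.76). The fast Kv3 subunit Kcnc1 (20.1 ± 2.9 in PFC, 20.7 ± 2.95 in hypothalamus) and Kcnc4 (19.2 ± 2.47 and 19.5 ± 2.84) did not separate beyond their SD in either region. Kcnd2, a Kv4 subunit of the A-type current, was at 17.5 ± 2.53 and 22 ± 2.93 RPKM. The leading Kcnh gene was not the same in the regions: Kcnh3, an ELK subunit of forebrain neurons, led in PFC (33.2 ± 5.51 RPKM), and Kcnh2, the ERG subunit, led in hypothalamus (14.3 ± 1.71 RPKM). Of the silent subunits Kcnf1 was highest in both regions (35.6 ± 5.91 and 10.5 ± 1.69 RPKM), and in PFC its mean and SD overlapped those of Kcnv1 (31.9 ± 6.06).

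Among inward rectifiers of PFC, Kcnj4 (55.2 ± 7.96 RPKM), a strong rectifier of neurons, and Kcnj10 did not separate beyond their SD. Kcnk1 led the 2-pore-domain genes at 41.5 ± 5.48 RPKM in PFC and 22.2 ± 3.11 in hypothalamus, followed by Kcnk9 (13.3 ± 3.49 and 11.9 ± 2.07), an acid-sensitive leak channel. The small-conductance genes were low, with Kcnn2 at 4.04 ± 0.773 RPKM in PFC and Kcnn3 at 5.5 ± 0.795 in hypothalamus as the highest of the 3, though in PFC Kcnn2 did not separate beyond the SD from Kcnn1 (3.94 ± 0.662). Kcnma1, the pore of the BK channel, was at 19 ± 3.48 and 10.7 ± 2.61 RPKM. Summed over its members, the Kcnj subfamily reached 223 RPKM in PFC and 187 in hypothalamus, the Kcnh subfamily 78.3 and 28.8, the silent subunits 96.1 and 25.9, and the Kcnc subfamily 69.1 and 68.1.

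The regions were then compared within animals, over the 30 mice with both libraries. Of the 78 members, 71 differed at an adjusted p below 0.05 (edgeR quasi-likelihood test, Benjamini-Hochberg adjustment over 18991 genes), where 75.2% of all genes were called. Higher levels in PFC were called for 48 members, where 39.3% of all genes were called in that direction, and higher levels in hypothalamus for 23, where 35.9% of all genes were called in that direction. With a change of at least 2-fold required as well, 31 members were called, where 20.5% of all genes were, and 23 of these were higher in PFC, where 10.4% of all genes were. Log2 fold changes are PFC over hypothalamus, so a negative value means a higher level in hypothalamus, and their median was 0.58 for the members and 0.0196 for all genes tested. For 28 members no PFC sample overlapped a hypothalamus sample (11.3% of all genes), 20 of them with the higher level in PFC (6.57% of all genes). In each of the 30 mice 27 members were higher in PFC (11.5% of all genes) and 11 were higher in hypothalamus (10.4% of all genes). Extraction pools held 1 region each, so region and pool cannot be told apart. Without replicate 5 of hypothalamus psilocybin 4 weeks 71 members were called, and without replicate 7 of PFC psilocybin 3 h 72. The summed level of 6 pan-neuronal genes was 5509 to 8608 (median 7103) CPM in PFC and 3383 to 4394 (median 3975) CPM in hypothalamus, and its part in these differences was not tested.

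**Figure D2:**
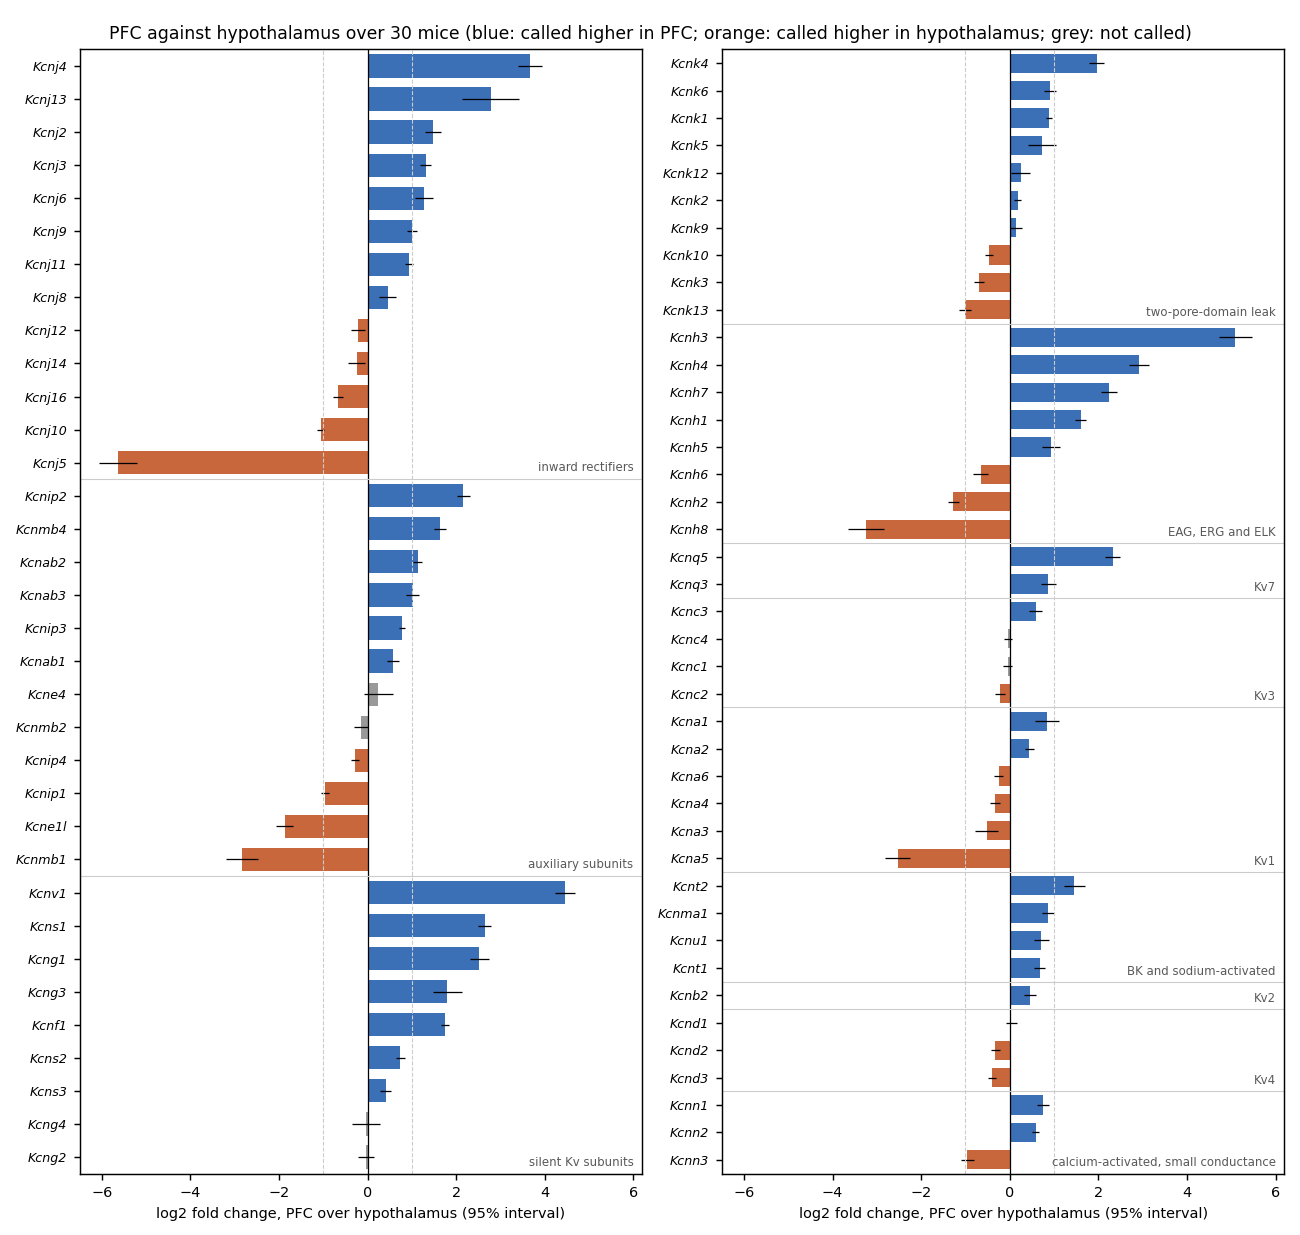
Log2 fold change of PFC over hypothalamus for 75 of the 78 members by subfamily, with 95% intervals, from the test within 30 mice; blue bars were called higher in PFC (45), orange bars higher in hypothalamus (23) and grey bars were not called (7). Dashed lines mark a 2-fold difference, and the bars reach from -5.64 for Kcnj5 to 5.09 for Kcnh3.

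The counts by role stand beside 39.3% of all genes called higher in PFC and 35.9% called higher in hypothalamus. All 4 genes of the BK and sodium-activated group (Kcnma1, Kcnt1, Kcnt2, Kcnu1) were higher in PFC. Of the silent subunits 7 of 9 were higher in PFC and none was lower, with Kcng2 and Kcng4 not called, and the median over the 9 was a log2 fold change of 1.75. The Kcnh genes split into 5 higher in PFC and 3 higher in hypothalamus, the Kcnj genes into 8 and 5, the Kcnk genes into 7 and 3, the Kcnn genes into 2 and 1, and the auxiliary genes into 6 and 4 of 12. Kcna genes went mostly the other way, with 4 of 6 higher in hypothalamus. Of the 3 Kcnd genes 2 were higher in hypothalamus and none in PFC, and of the 4 Kcnc genes 1 was called in each direction. The 7 members not called were Kcnc1, Kcnc4, Kcnd1, Kcne4, Kcng2, Kcng4 and Kcnmb2, with log2 fold changes from -0.15 to 0.24.

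The gene with the widest difference toward PFC was Kcnh3 (chr15:99224861-99242817 in GRCm38), whose level was 120.5 to 283 (median 184) CPM in PFC and 2.09 to 19.3 (median 4.17) CPM in hypothalamus. Its samples did not overlap, and the log2 fold change was 5.09 (SE 0.185, adjusted p = 3.26e-20). Kcnh3 lies against Mcrs1 on the opposite strand, and reads of such pairs may not be told apart in these counts. Kcnv1, a silent subunit that acts on Kv2 channels, was at 96.9 to 188 (median 147) CPM against 2.21 to 10.7 (median 6.69), with a log2 fold change of 4.45 (SE 0.107, adjusted p = 3.55e-26). Kcnj4 was at 87.8 to 163 (median 115) CPM against 4.62 to 30.5 (median 6.82), and its log2 fold change was 3.67 (SE 0.131, adjusted p = 4.03e-21). Another ELK gene, Kcnh4, had a log2 fold change of 2.92 (SE 0.108), the silent subunits Kcns1 and Kcng1 had 2.64 (SE 0.0716) and 2.52 (SE 0.101), and Kcnq5, an M-current subunit, had 2.32 (SE 0.0788). For none of these 7 genes did a PFC sample overlap a hypothalamus sample.

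Kcnh3 and Kcnj4 varied widely among the hypothalamus libraries, together with the summed level of 7 genes that mark striatal neurons (Drd1, Drd2, Ppp1r1b, Adora2a, Rgs9, Pde10a and Rasd2). The 3 hypothalamus libraries with the highest striatal sum, 1 each of vehicle 3 h, vehicle 4 weeks and psilocybin 4 weeks, had sums of 500.0 to 607 CPM, Kcnh3 at 18.5 to 19.3 CPM and Kcnj4 at 23.8 to 30.5 CPM. The other 28 libraries had striatal sums of 195 to 377 CPM (median 237), Kcnh3 at 2.09 to 13.8 CPM (median 4.01) and Kcnj4 at 4.62 to 20.9 CPM (median 6.75). The same 3 libraries thus held the highest levels of all 3 measures, and the part of the cells that carry the striatal markers in these values was not tested. Even the highest hypothalamus library stayed below the lowest PFC library for both genes.

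**Figure D3:**
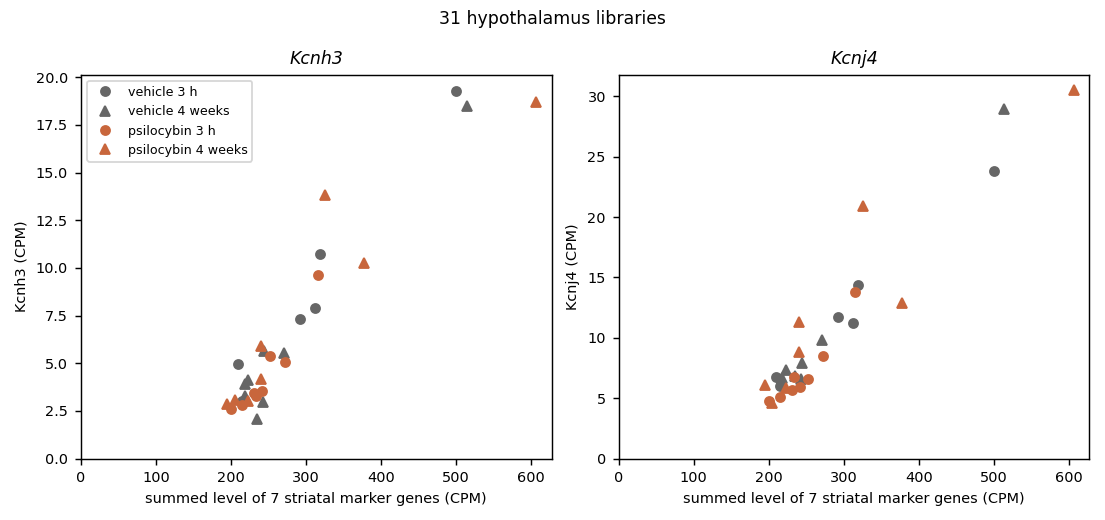
Level of Kcnh3 (left) and Kcnj4 (right) in CPM against the summed CPM of 7 striatal marker genes in the 31 hypothalamus libraries; colour gives the treatment and shape the time. In both plots the points rise from left to right, and the 3 libraries with sums of 500.0 to 607 CPM lie at the top.

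Toward hypothalamus the widest difference was that of Kcnj5 (chr9:32314707-32344350 in GRCm38), a G protein-gated inward rectifier subunit. It was at 11 to 20.5 (median 14.9) CPM in hypothalamus and 0 to 1.26 (median 0.306) CPM in PFC, where 5 of 31 libraries had no read and the 31 together held 265. The log2 fold change of PFC over hypothalamus was -5.64 (SE 0.207, adjusted p = 2.08e-21). The third ELK gene, Kcnh8, went opposite to Kcnh3 and Kcnh4, at 2.5 to 6.28 (median 3.48) CPM in hypothalamus against 0 to 1.07 (median 0.37) in PFC and a log2 fold change of -3.24 (SE 0.202, adjusted p = 1.01e-15). Kcna5, a Kv1 subunit also known from vascular muscle, was at 8.59 to 19.9 (median 15.1) against 0.173 to 8.61 (median 2.47) CPM, a log2 fold change of -2.53 (SE 0.137, adjusted p = 4.11e-17). Kcne1l, a single-span auxiliary subunit, had a log2 fold change of -1.87 (SE 0.0979) and Kcnh2 one of -1.27 (SE 0.0649). All 5 were higher in hypothalamus in each of the 30 mice.

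Kcnmb1, the BK beta subunit best known from smooth muscle, had a log2 fold change of -2.83 (SE 0.179, adjusted p = 1.52e-15), with 1.81 to 8.58 (median 5.14) CPM in hypothalamus and 0.158 to 1.78 (median 0.551) CPM in PFC. It sits inside Kcnip1 on the opposite strand (chr11:33963013-33973641 within chr11:33629339-33992988), and Kcnip1, a calcium-binding partner of Kv4 channels, was itself higher in hypothalamus, with a log2 fold change of -0.95 (SE 0.0448, adjusted p = 5.6e-19). The library kit kept strands apart, but whether reads were counted by the strand of the gene is not given in the sources used here, so reads of these genes may be shared. In all, 18 members overlapped another gene with a mean of at least 1 CPM, 17 of them on the opposite strand only.

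Members known from glia, vessels or choroid plexus were set beside the markers of those cells. Of the 6 genes of that list 2 were called higher in PFC (39.3% of all genes) and 4 in hypothalamus (35.9% of all genes). Kcnj10 had a log2 fold change of -1.06 (SE 0.0391, adjusted p = 9.38e-22) and was higher in hypothalamus in each of 30 mice, as was Kcnj16, its partner subunit (-0.67, SE 0.0562). In the same libraries 4 of 8 astrocyte genes were called higher in PFC and 2 in hypothalamus, with a median log2 fold change of 0.00886. Their summed level was 5768 to 11002 (median 8123) CPM in PFC and 3877 to 6229 (median 5007) CPM in hypothalamus, of which Slc1a2 alone had a median of 4619 and 1819 CPM. All 8 oligodendrocyte genes were called higher in hypothalamus, with sums of 2369 to 6935 (median 4086) CPM in PFC and 6209 to 11203 (median 8383) CPM in hypothalamus. Kcnk13, the leak channel of microglia, was higher in hypothalamus (-1.01, SE 0.066, adjusted p = 3.93e-15) although the sum of 8 microglial genes was 437 to 825 (median 644) CPM in PFC and 287 to 507 (median 363) in hypothalamus. Kcnj8, the ATP-sensitive rectifier of mural cells, was higher in PFC (0.45, SE 0.0929, adjusted p = 6.74e-05), as was the sum of 8 endothelial and mural genes (293 to 411, median 335 CPM against 139 to 337, median 196 CPM). The part of these cell types in the differences was not tested.

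Kcnj13, an inward rectifier of transporting epithelia, was higher in PFC (2.77, SE 0.317, adjusted p = 2.74e-09), whereas the summed choroid plexus markers were 4.61 to 56.4 (median 12.5) CPM in PFC and 28.2 to 1242 (median 49.8) CPM in hypothalamus. Its level was 1.06 to 5.16 (median 1.95) CPM in PFC and 0 to 6.69 (median 0.3) CPM in hypothalamus. The highest hypothalamus value, 6.69 CPM, came from the library with the highest sum of 6 choroid plexus genes, 1242 CPM against at most 252 CPM in the others, in which Kcnj13 was at most 1.65 CPM. Kcnj13 lies within Gigyf2 on the opposite strand, a gene at 77.1 CPM, so its level is uncertain. The sixth gene of the list, Kcne2, which fell below the level for members, was higher in hypothalamus.

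There were 5 pairs of members within 100000 bases of each other, whose values are given as a description. Kcnj9 and Kcnj10 lie 11892 bases apart on chromosome 1, and Kcnj9, a neuronal G protein-gated rectifier subunit, was higher in PFC (1.01, SE 0.0537) whereas Kcnj10 was higher in hypothalamus. On chromosome 11, 38199 bases separate Kcnj16 from Kcnj2, a strong inward rectifier that was higher in PFC (1.47, SE 0.0872). Kcna3 (-0.53, SE 0.124) and Kcna2 (0.44, SE 0.0526) lie 63076 bases apart on chromosome 3, and Kcna1 (0.84, SE 0.136) and Kcna6 (-0.25, SE 0.0469) 61945 bases apart on chromosome 6. The fifth pair was Kcnip1 and Kcnmb1.

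Partners outside the Kcn symbols were read from a fixed list of 26 accessory and anchoring genes, of which 25 were tested. Called higher were 17 in PFC, where 39.3% of all genes were, and 7 in hypothalamus, where 35.9% of all genes were. The widest differences toward PFC were those of Akap5, an anchor of kinases at channels (2.46 on the log2 scale), and of the scaffolds Dlg2 (1.28) and Dlg4 (1.16). Toward hypothalamus they were those of Cntn2 (-0.77), an adhesion protein of juxtaparanodal Kv1 clusters, Lrrc55 (-0.75), a BK gamma subunit, and Dpp6 (-0.62), a Kv4 partner. The sulfonylurea receptor genes went the way of their pores: Abcc8 (0.75) beside Kcnj11 (0.93, SE 0.0462) and Abcc9 (0.43) beside Kcnj8. Hcn2 (-0.36), Hcn3 (-1.52) and Hcn4 (-2.41), genes of cation channels related to Kv subunits, were higher in hypothalamus.

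The comparison of psilocybin with vehicle asked whether the drug altered the transcriptome of a region at 3 h or at 4 weeks. No member was called in any of the 4 comparisons (edgeR quasi-likelihood test, adjusted p below 0.05 over 18971 genes). The share of all genes called was 0.0105% in PFC at 3 h and 0.0% in PFC at 4 weeks, 0.0% in hypothalamus at 3 h and 0.0% in hypothalamus at 4 weeks. At an unadjusted p below 0.05 there were 7 members in PFC at 3 h (7.23% of all genes), 4 in PFC at 4 weeks (2.4% of all genes), 5 in hypothalamus at 3 h (1.78% of all genes) and 2 in hypothalamus at 4 weeks (9.61% of all genes). DESeq2 called none in any comparison. Voom with sample weights called 5 members in PFC at 3 h, Kcnn2, Kcnv1, Kcnip4 and Kcnj2 higher and Kcna6 lower with psilocybin, among 1232 genes (6.49% of all genes), and none in the other comparisons; Kcnv1 and Kcnip4 are named because voom called them. The 95% interval of the log2 fold change lay within a 1.5-fold change in either direction for 63 of 78 members in PFC at 3 h, 65 in PFC at 4 weeks, 61 in hypothalamus at 3 h and 62 in hypothalamus at 4 weeks. For the other members the interval reached past such a change on at least 1 side.

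**Figure D4:**
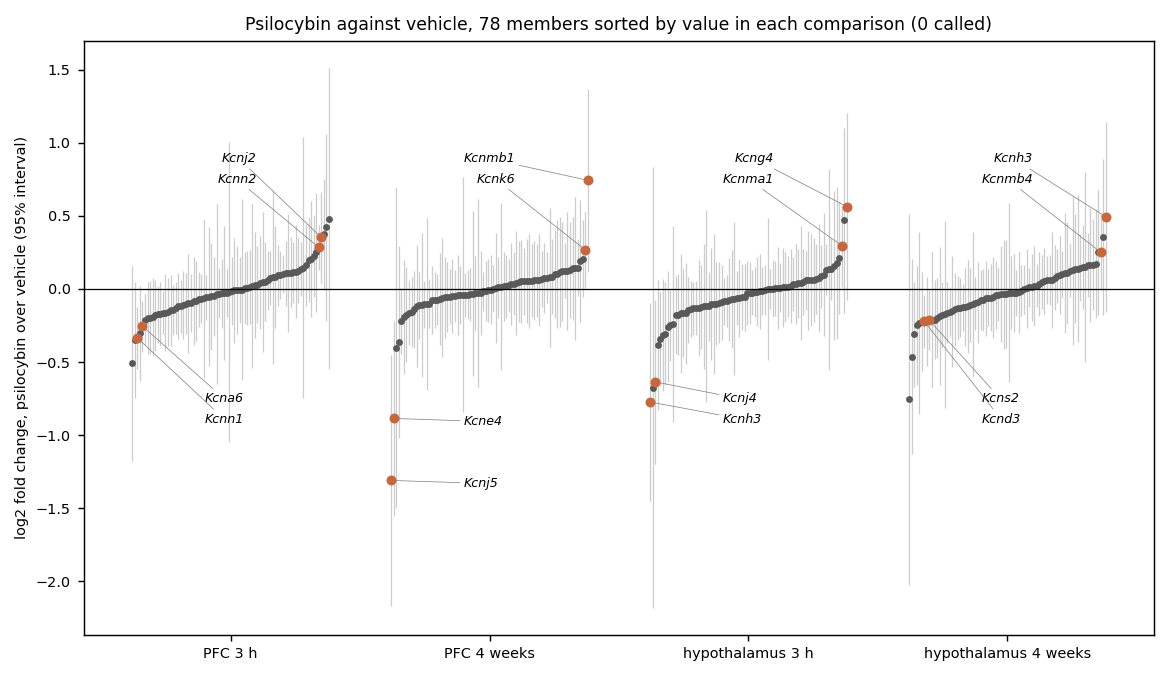
Log2 fold change of psilocybin over vehicle for the 78 members, sorted within each of the 4 comparisons, with 95% intervals in grey; orange points are the 2 higher and 2 lower members with the smallest p of each comparison. No member was called, and the median size of the log2 fold change over the 78 members was 0.103, 0.064, 0.0885 and 0.114 from left to right.

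In PFC at 3 h the smallest p was that of Kcnn2, the small-conductance channel that contributes to the afterhyperpolarization. Its level was 33.4 to 42.2 CPM (median 37.3) with psilocybin and 27 to 35.5 CPM (median 31) with vehicle. The groups overlapped, but 6 of 8 psilocybin samples lay above the highest vehicle sample, and the log2 fold change was 0.28 (SE 0.0776, adjusted p = 0.276). Kcnj2 had 0.35 (SE 0.155, adjusted p = 0.67). On the lower side were Kcnn1, another small-conductance subunit, with -0.33 (SE 0.106, adjusted p = 0.456) and Kcna6, a Kv1 subunit, with -0.25 (SE 0.0864, adjusted p = 0.51). With voom the adjusted p was 0.0105 for Kcnn2, so that the call for this gene depended on the test. In this comparison all 7 striatal markers (median log2 fold change 0.25) and all 8 oligodendrocyte markers (median 0.21) had positive values. None of these markers was called by edgeR, and their part in the members' values was not tested.

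In PFC at 4 weeks Kcnmb1 had a log2 fold change of 0.74 (SE 0.313, adjusted p = 1) and Kcnk6, a leak channel, one of 0.27 (SE 0.131, adjusted p = 1). Kcnj5 had -1.31 (SE 0.427, adjusted p = 1), on a few reads, since the vehicle group ranged over 0 to 1.26 CPM (median 0.414) and the psilocybin group over 0 to 0.527 CPM (median 0.324). Of the 150 reads of the vehicle group 88 were in 1 library. Beside it, 8 of 11 hypothalamic markers (median log2 fold change -0.63) and all 7 striatal markers (median -0.47) had negative values in this comparison, none called, and their part was not tested. Kcne4, an auxiliary subunit of Kv channels, had -0.89 (SE 0.334, adjusted p = 1).

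The thalamic markers moved with the hypothalamus comparisons by sign, with none called: all 6 were higher with psilocybin at 3 h (median log2 fold change 0.16), lower with it at 4 weeks (median -0.19) and, after psilocybin, higher at 3 h than at 4 weeks (median 0.26). Their part in the members' values was not tested. In hypothalamus at 3 h Kcnma1 had 0.30 (SE 0.14, adjusted p = 1) and the silent subunit Kcng4 had 0.56 (SE 0.32, adjusted p = 1). Kcnh3 had -0.77 (SE 0.337, adjusted p = 1) and Kcnj4 had -0.63 (SE 0.279, adjusted p = 1), the genes that moved with the striatal markers. The summed striatal level was 210.1 to 500.0 (median 292) CPM in the 7 vehicle and 199.9 to 315 (median 238) CPM in the 8 psilocybin samples, and its part in these values was not tested. Kcnk13 ranged over 10.1 to 11.8 CPM (median 10.9) with psilocybin and 11.9 to 14.4 CPM (median 13) with vehicle. The gene is named because these groups did not overlap (0.0474% of all genes), and its log2 fold change was -0.25 (SE 0.12, adjusted p = 1). Of 8 microglial markers 7 had negative log2 fold changes here (none called), with sums of 287 to 418 (median 320.0) CPM with psilocybin and 292 to 389 (median 366) CPM with vehicle, and their part was not tested.

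In hypothalamus at 4 weeks Kcnmb4, the neuronal BK beta subunit, had 0.25 (SE 0.131, adjusted p = 0.543) and Kcnh3 had 0.49 (SE 0.324, adjusted p = 0.669). The Kcnmb4 value rested on replicate 5 of the psilocybin group, at 27.3 CPM where the other 7 were at 7.04 to 11.6 CPM, and without that library the log2 fold change was -0.0598. On the lower side were Kcnd3, a Kv4 subunit, with -0.22 (SE 0.0907, adjusted p = 0.448), and Kcns2 with -0.21 (SE 0.102, adjusted p = 0.494). Without replicate 5 the Kcnd3 value was -0.13 (adjusted p = 1), and without replicate 6 of the vehicle group the Kcnh3 value was 0.91 (adjusted p = 0.538). All 7 striatal markers had positive log2 fold changes in this comparison (median 0.28, none called), and their part in the Kcnh3 value was not tested. For Kcnd3 too the same library was far from the others, at 56.6 CPM against 109 to 124.

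The times were compared within each treatment and region, which sets animals 3 h after an injection against animals 4 weeks after it. Age, time since this injection and time since the sham injections before it differ together in these comparisons and cannot be told apart. Each group of the treatment comparisons is used again here. Called at an adjusted p below 0.05 were 11 members in PFC vehicle (4.72% of all genes), 7 in PFC psilocybin (5.96% of all genes), 2 in hypothalamus vehicle (0.685% of all genes) and 2 in hypothalamus psilocybin (1.16% of all genes). Over the 4 comparisons 14 members were called in at least 1 (9.24% of all genes) and 4 in at least 2 (2.63% of all genes). Kcnn2 and Kcnk1 were called in all 4 (0.179% of all genes), each time higher at 3 h, and the samples of both regions came from the same mice. The counts in PFC depended on the model. The 11 of vehicle became 5 without the pool term and 3 with the groups of that comparison alone. Within the first and second extraction pools they became 1 and 0. The 7 of psilocybin became 2, 6, 4 and 1 in the same order, and 4 with the cage number of the mice as a term. The share of all genes called under each of these models is not given here. Without replicate 6 of PFC vehicle 4 weeks the 11 became 7: Kcna4, Kcnj12, Kcnn2 and Kcnt1 were no longer called, with an adjusted p of 0.0996 for Kcnn2. Without replicate 5 of PFC psilocybin 3 h, the PFC library with the highest wound healing and immune sum, the 7 became 4: Kcnj14, Kcnmb1 and Kcns2 were no longer called, with adjusted p of 0.0551, 0.0667 and 0.0630.

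Kcnn2 was at 27 to 35.5 CPM (median 31) at 3 h and 19.2 to 30.2 CPM (median 25.7) at 4 weeks in PFC vehicle, with a log2 fold change of 0.27 (SE 0.078, adjusted p = 0.0305). In PFC psilocybin it was at 33.4 to 42.2 CPM (median 37.3) and 21.9 to 29.7 CPM (median 25.7), groups that did not overlap (0.965% of all genes), and the log2 fold change was 0.55 (SE 0.0809, adjusted p = 5.61e-06). Hypothalamus gave the same order in both treatments. With vehicle the levels were 18.3 to 26.7 CPM (median 24.5) at 3 h and 13.8 to 19.4 CPM (median 15.8) at 4 weeks, with a log2 fold change of 0.55 (SE 0.0819, adjusted p = 1.36e-05). After psilocybin they were 18.9 to 27.7 CPM (median 24) and 14.5 to 20.9 CPM (median 17.4), with one of 0.44 (SE 0.0793, adjusted p = 0.000493). The call held in 15 of 15 alternative settings for hypothalamus vehicle and 14 of 15 for PFC psilocybin. It held in 12 of 15 for hypothalamus psilocybin and 7 of 15 for PFC vehicle, with the same direction in all of them. Some of the 15 left out a library of neither group compared, so they bear less on the call, here and below.

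Kcnk1, a leak channel of the 2-pore-domain group, was at 84.3 to 109 CPM (median 99.4) at 3 h and 72.4 to 95.3 CPM (median 81.2) at 4 weeks in PFC vehicle, with a log2 fold change of 0.25 (SE 0.065, adjusted p = 0.014). In PFC psilocybin the levels were 95.9 to 112 CPM (median 106) and 76.3 to 92.9 CPM (median 78.4), with no overlap and a log2 fold change of 0.37 (SE 0.0676, adjusted p = 0.000287). Hypothalamus vehicle gave 49.5 to 62.8 CPM (median 52.9) and 36.7 to 50.6 CPM (median 44.4), with 0.30 (SE 0.0681, adjusted p = 0.0154). Hypothalamus psilocybin gave 46.7 to 58.3 CPM (median 56.5) and 35.3 to 55.5 CPM (median 44.8), with 0.29 (SE 0.0659, adjusted p = 0.0113). The Kcnk1 call held in 14 of 15 alternative settings for PFC psilocybin, 11 of 15 for hypothalamus vehicle, 11 of 15 for hypothalamus psilocybin and 10 of 15 for PFC vehicle, with adjusted p up to 0.0693, 0.906, 0.235 and 0.225 and the same direction in all of them. The differences were small, at most 1.29-fold for Kcnk1 and 1.47-fold for Kcnn2.

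**Figure D5:**
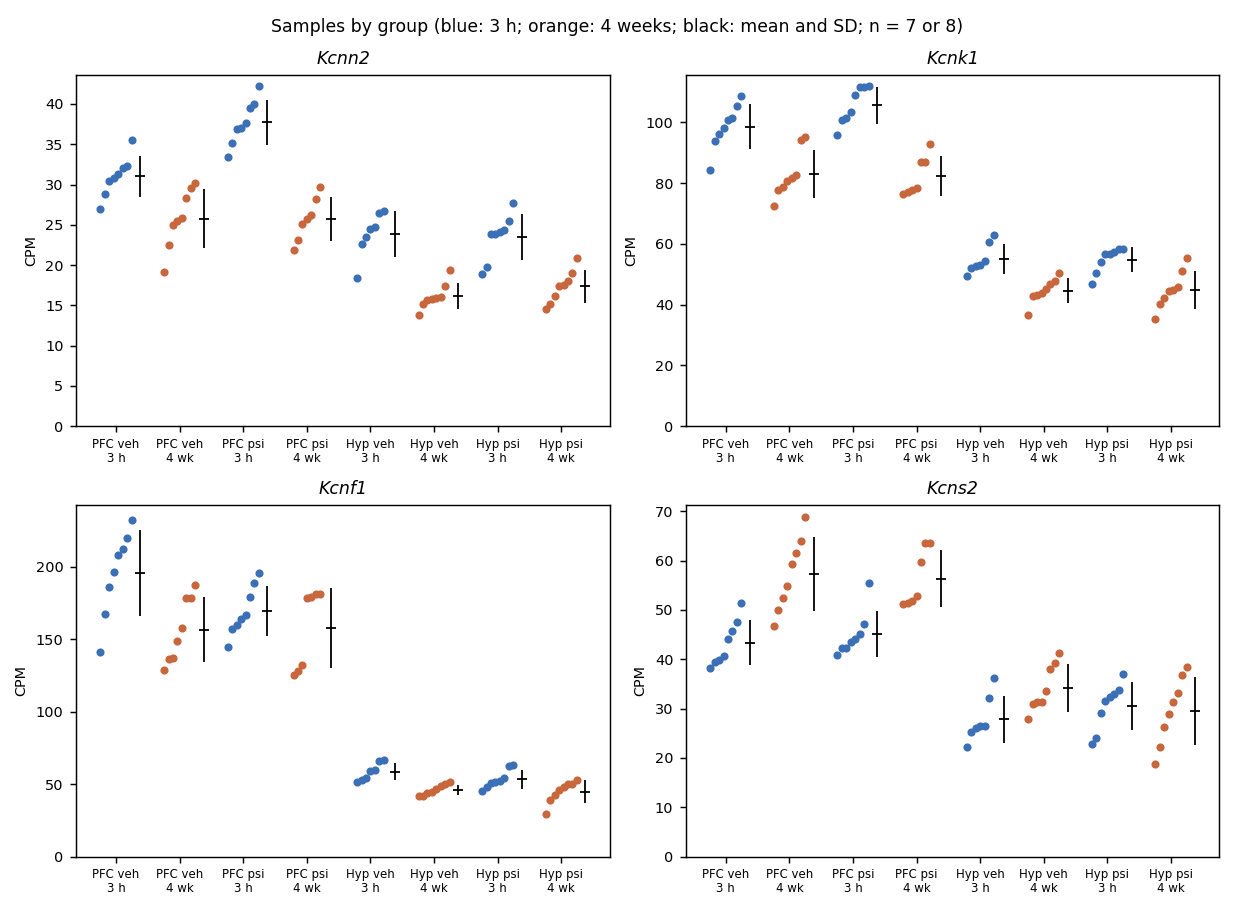
CPM of Kcnn2, Kcnk1, Kcnf1 and Kcns2 in each sample of the 8 groups, with blue points for 3 h and orange points for 4 weeks and the mean and SD in black. Kcnn2 and Kcnk1 lie higher at 3 h in all 4 pairs of groups, and Kcns2 lies lower at 3 h in both PFC pairs.

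In PFC vehicle the other called members with the smallest p were Kcnk6 (0.50, SE 0.126, adjusted p = 0.0116) and the silent subunit Kcng1 (0.62, SE 0.163, adjusted p = 0.0166) on the higher side. On the lower side they were Kcns2, a silent subunit, at 38.2 to 51.3 CPM (median 42.4) at 3 h and 46.8 to 68.8 CPM (median 57.1) at 4 weeks (-0.40, SE 0.101, adjusted p = 0.0109), Kcnj5 (-1.65, SE 0.436, adjusted p = 0.0164) and Kcna4, an A-type Kv1 subunit (-0.37, SE 0.111, adjusted p = 0.0393). The Kcnj5 value rests on 30 reads over 8 libraries at 3 h and 150 at 4 weeks, of which 88 were in 1 library. Of 11 hypothalamic markers 3 were also called lower at 3 h in PFC vehicle, where their sum was 2.84 to 8.72 (median 4) CPM at 3 h and 3.79 to 25.5 (median 5.95) CPM at 4 weeks, and their part in the Kcnj5 value was not tested. Also called were Kcnk13 (0.45), Kcnf1 (0.32) and Kcnj12 (0.45), higher at 3 h, and Kcnt1, a sodium-activated channel (-0.37), lower, named here because they were called. Of the alternative settings the call held in 12 of 15 for Kcnk6, 12 of 15 for Kcng1, 11 of 15 for Kcnk13, 10 of 14 for Kcnj5, 9 of 15 for Kcnf1, 8 of 15 for Kcna4 and 6 of 15 for Kcnj12, with the same direction in all. Beside Kcnk13, the summed level of 8 microglial genes was 451 to 825 (median 688) CPM at 3 h and 437 to 691 (median 597) CPM at 4 weeks, and its part was not tested. Of 8 astrocyte markers 2 were called higher at 3 h in PFC vehicle and 3 in PFC psilocybin, and of 6 pan-neuronal markers none was called in either. All 7 striatal markers were lower at 3 h in PFC vehicle by sign (median log2 fold change -0.76, none called), with sums of 229 to 600.2 (median 282) CPM at 3 h and 224 to 1633 (median 287) CPM at 4 weeks, and their part in the members' values was not tested.

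In PFC psilocybin Kcnj14, an inward rectifier, was higher at 3 h (0.61, SE 0.196, adjusted p = 0.0468). Lower at 3 h were Kcnk9 (-0.47, SE 0.12, adjusted p = 0.0112), at 106 to 173 CPM (median 135) against 133 to 259 CPM (median 167) at 4 weeks, Kcnmb1 (-1.09, SE 0.326, adjusted p = 0.0326), Kcnt1 (-0.39, SE 0.117, adjusted p = 0.034) and Kcns2 (-0.32, SE 0.104, adjusted p = 0.048). The Kcnmb1 value rests on 63 reads over 8 libraries at 3 h and 148 over 7 at 4 weeks, of which 47 were in 1 library. Beside it, 10 of 11 hypothalamic markers had negative log2 fold changes in PFC psilocybin (median -0.73, none called), and their part was not tested. Without replicate 6 of hypothalamus vehicle 4 weeks the adjusted p of Kcnj14 was 0.0503, and without replicate 7 of PFC psilocybin 3 h that of Kcns2 was 0.0652. Kcns2 and Kcnt1 were called lower at 3 h with both treatments in PFC, on separate animals. Of the alternative settings the Kcns2 call held in 13 of 15 with vehicle and 7 of 15 with psilocybin, and the Kcnt1 call in 7 of 15 and 12 of 15, with the same direction in all. With psilocybin the Kcnk9 call held in 13 of 15, the Kcnmb1 call in 7 of 15 (log2 fold changes of -1.42 to -0.61, adjusted p up to 0.602) and the Kcnj14 call in 6 of 15 (adjusted p up to 0.367).

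In hypothalamus the members next by p were not called. With vehicle, Kcnf1 had 0.35 (SE 0.0924, adjusted p = 0.0549) and its groups did not overlap (0.859% of all genes), at 51.7 to 66.4 CPM (median 58.9) at 3 h and 41.5 to 51.3 CPM (median 45.4) at 4 weeks. Among the others, Kcns2 had -0.31 (SE 0.106, adjusted p = 0.25) and Kcnma1 had -0.31 (SE 0.14, adjusted p = 0.516). After psilocybin Kcnf1 had 0.26 (SE 0.0896, adjusted p = 0.134), Kcnj4 -0.77 (SE 0.271, adjusted p = 0.137), Kcnu1 -0.36 (SE 0.145, adjusted p = 0.182) and Kcns1 -0.32 (SE 0.134, adjusted p = 0.204). Without replicate 5 of hypothalamus psilocybin 4 weeks the value of Kcnu1 was -0.18 and that of Kcns1 -0.19, and Kcnf1 with vehicle had an adjusted p of 0.0136. Beside Kcnj4, the striatal sum was 199.9 to 315 (median 238) CPM at 3 h and 195 to 607 (median 240.3) CPM at 4 weeks, and its part was not tested.

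Start regions from RefSeq (GRCm38.p6) are shown for 3 of the 7 members called higher at 3 h in PFC vehicle, so that the sequences of genes that moved together can be read side by side. Each is 300 bases, 250 before the annotated start in lower case and 50 from the start on in capitals. They lie at chr8:125994852-125995151 (plus strand) for Kcnk1, chr12:17176839-17177138 (minus strand) for Kcnf1 and chr12:99964249-99964548 (plus strand) for Kcnk13.
Kcnk1: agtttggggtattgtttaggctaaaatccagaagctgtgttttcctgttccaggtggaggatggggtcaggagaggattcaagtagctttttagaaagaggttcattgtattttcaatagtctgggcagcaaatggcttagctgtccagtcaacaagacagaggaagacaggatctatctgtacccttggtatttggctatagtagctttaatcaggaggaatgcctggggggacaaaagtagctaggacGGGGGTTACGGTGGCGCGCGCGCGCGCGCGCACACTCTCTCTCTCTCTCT
Kcnf1: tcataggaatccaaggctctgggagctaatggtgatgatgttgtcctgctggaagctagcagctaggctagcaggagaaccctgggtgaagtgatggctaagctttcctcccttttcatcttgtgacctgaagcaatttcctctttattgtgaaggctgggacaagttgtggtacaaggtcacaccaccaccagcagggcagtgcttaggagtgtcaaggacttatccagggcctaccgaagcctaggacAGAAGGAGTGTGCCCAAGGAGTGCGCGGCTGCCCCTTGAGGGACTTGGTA
Kcnk13: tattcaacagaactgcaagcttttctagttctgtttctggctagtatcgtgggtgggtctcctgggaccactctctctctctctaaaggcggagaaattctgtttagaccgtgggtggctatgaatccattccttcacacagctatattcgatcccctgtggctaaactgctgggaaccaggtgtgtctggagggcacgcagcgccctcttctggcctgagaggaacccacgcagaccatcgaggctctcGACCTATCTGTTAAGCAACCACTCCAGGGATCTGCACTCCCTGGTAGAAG
Each was searched on both strands for the E-box CACGTG, the cAMP response element TGACGTCA, its core TGACG, which every full element also holds, and TATAAA. None of the 4 motifs was found in any of the 3 windows. Of 32851 start regions of the same length over all genes, 7.15% held the E-box, 1.79% the full element, 20.8% the core and 13.6% TATAAA. Of the 78 members 56 had a start region in the table, 79 regions in all, and 7.59%, 0.0%, 19.0% and 5.06% of the 79 held these motifs. The median number of CpG pairs was 10 over 79 start regions of members and 7 over all, and Kcnf1 had 3.

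Whether the drug effect differed between regions or times, and whether the time difference of vehicle animals differed between regions, was tested with interaction terms. The animal was not a term in these edgeR fits, so the regions of a mouse were treated as independent. No member was called in any of the 5 (0.0%, 0.0%, 0.0% and 0.0% of all genes for the 4 interactions with psilocybin and 0.0369% for the one without). Unadjusted p below 0.05 held for 2 members for region at 3 h (2.78% of all genes), 4 for region at 4 weeks (6.69% of all genes), 6 for time in PFC (3.08% of all genes), 7 for time in hypothalamus (5.27% of all genes) and 13 for vehicle time by region (5.84% of all genes). For Kcnn2 the log2 fold change at 3 h in PFC minus that in hypothalamus was 0.30 (SE 0.112, adjusted p = 1), with a 95% interval of 0.0736 to 0.52. The smallest p of the others were those of Kcnd3 at 4 weeks (0.35, SE 0.131, adjusted p = 0.697), Kcne4 between times in PFC (1.31, SE 0.461, adjusted p = 1), Kcnh3 between times in hypothalamus (-1.27, SE 0.468, adjusted p = 0.904) and Kcnj5 for the vehicle time difference between regions (-1.69, SE 0.507, adjusted p = 0.355). Without replicate 5 of hypothalamus psilocybin 4 weeks the Kcnd3 value was 0.25 (adjusted p = 1). DESeq2 called Kcnj5 in the last and no member in the first 4, and voom called none in any. For the 2 genes called at all 4 time comparisons, the vehicle time difference in PFC minus that in hypothalamus was -0.28 (SE 0.113, adjusted p = 0.67) for Kcnn2 and -0.0449 (SE 0.0942, adjusted p = 1) for Kcnk1.

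By the estimate of edgeR, members varied between samples of a group about as much as other genes. The median biological coefficient of variation was 17.0% against 17.6% over all genes tested, and members ranged from 8.98% to 77.2%. This estimate is pooled over the groups, is drawn toward that of other genes and leaves out the sampling error of reads. At the edge of the rule, Kcng3, Kcnk5 and Kcnj13 had the lowest mean levels above the limit, and Kcnrg (0.740 CPM), Kcnn4 (0.589 CPM) and Kcnq1 (0.576 CPM) were just below it. Kcnj13 had the highest coefficient of variation, followed by Kcnh3 (41.9%) and Kcng4 (41.5%), and its 95% interval for psilocybin was the widest of all members in 3 of the 4 comparisons.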

How the data were processed

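Gene counts were deposited by the authors as one table of whole read counts, made with bcl2fastq 2.20.0, STAR 2.7.2b and featureCounts 1.6.2 per the submitters' processing notes on the GENCODE 25 mouse annotation (GRCm38). Symbols, lengths and coordinates were taken from GENCODE 21, which matched 55141 of 55401 gene IDs without the version and 72 of 78 members with it. Counts were tested with edgeR 4.0.16 in R 4.3.3: filterByExpr by group, TMM scaling, robust quasi-likelihood fits over the 62 libraries with at least 1000000 reads, with group and extraction pool (coded within region) as terms and Benjamini-Hochberg adjustment over all genes. PFC was compared with hypothalamus with the animal as a block over 30 mice. Per the study's methods the library kit was stranded and a read was counted when its ends lay on the same strand; whether the gene's own strand was required is not given in the sources used here. Several members are counted here but not reported by name or drawn singly, and a few genes of the other lists are not reported. The scripts were tested on simulated counts. DESeq2 1.42.0 and limma 3.58.1 (voom with sample weights, the procedure of the study itself) were alternatives.

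The members, gene lists and tests were chosen with earlier results of these data known. The text names, for levels, the highest member of each subfamily, for psilocybin the 2 higher and 2 lower members with the smallest p, for time 3 and 3, for regions the 8 called members with the largest differences each way, for each interaction the 1 with the smallest p, and all members called for psilocybin, time or an interaction. Kcnk13 for psilocybin in hypothalamus at 3 h and the members that voom called were named after their values were seen. In the accessory list the 3 largest differences each way are named. Samples with the same cage number, treatment and time were taken as 1 animal, and PFC was compared with hypothalamus within animals. The interactions between regions had only group and pool as terms. The deviations of the regions of 1 animal from their group means correlated by 0.0854 on average over the 30 animals, and by 0.0289 with the pool removed. Of 210 pairs of samples of a group none held identical counts. Counts cover sampling error of reads only, and p-values measure the spread between mice.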

Additional observations from a re-analysis of the deposited data

Results flagged for a closer look

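Of 84 groups of 7 or 8 samples of the named members, 8 held a sample far from the others by Dixon's criterion, where chance would give about 1 in 20. Of these, 3 were replicate 5 of hypothalamus psilocybin 4 weeks, with Kcnd3 at 56.6 CPM (others 108.8 to 124.0), Kcnmb4 at 27.3 CPM (others 7.04 to 11.6) and Kcnu1 at 5.41 CPM (others 2.14 to 3.19). Replicate 6 of hypothalamus psilocybin 3 h had Kcnh3 at 9.61 CPM (others 2.58 to 5.38) and Kcnj4 at 13.8 CPM (others 4.74 to 8.52), and replicate 6 of hypothalamus vehicle 4 weeks had Kcnh3 at 18.5 CPM (others 2.09 to 5.65). The summed striatal markers of these libraries were 315 and 514 CPM, and their part in the values was not tested. In replicate 5 of PFC vehicle 4 weeks Kcng1 was at 14.5 CPM (others 22.1 to 28.1), and in replicate 4 of PFC psilocybin 3 h Kcns2 was at 55.4 CPM (others 40.8 to 47.2).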

How the results depend on the processing

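The alternatives without replicate 6 of PFC vehicle 4 weeks, replicate 6 of hypothalamus vehicle 4 weeks and replicate 5 of PFC psilocybin 3 h were chosen after seeing the data. The region counts held their size under every alternative run. No member was called for psilocybin under any alternative except voom with quality weights, the procedure of the study itself. It called 5 in PFC at 3 h, where 6.49% of all genes were called. For 3 h against 4 weeks the counts moved. The share of all genes called under each alternative is not given here, so these counts are not read as particular to the members. In PFC vehicle (11) they were 5 with all 64 libraries, 5 with no extraction pool, 1 with no filter on low counts, 3 with only the groups of the contrast, 1 within the first and 0 within the second extraction pools, and 7 to 13 with a standing-apart library left out. In PFC psilocybin (7) they were 2 with no pool, 3 with no filter, 4 and 1 within the pools, and 4 to 8 with a library left out. In hypothalamus vehicle (2) they were 1 with all libraries, 1 with no filter, 4 with only the groups of the contrast, 6 with voom, 1 and 1 within the pools, and 2 to 3 with a library left out. In hypothalamus psilocybin (2) they were 1 with all libraries, 0 with only the groups of the contrast, 4 with voom, 0 and 0 within the pools, and 2 with a library left out. Pools and single contrasts hold fewer samples, and the cause of the other moves was not tested. For the vehicle time difference between regions DESeq2 called 1 member, and edgeR 0.

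With the cage number as a replicate block PFC psilocybin gave 4 called members against 7. Samples of 1 region that share a cage number correlated by 0.0806 in PFC and 0.0723 in hypothalamus on average. With the pool removed the values were -0.0415 and -0.0236. The regions of 1 animal also correlated weakly, by 0.0854, and by 0.0289 with the pool removed. This measure therefore cannot decide whether the cage number pairs samples.

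Of 987 values of named members under alternatives, 871 kept direction and side of the threshold, 102 lost and 10 gained the call, and 4 changed sign. These were Kcnmb4 for psilocybin in hypothalamus at 4 weeks, at -0.0840 with voom, -0.12 within the first pools and -0.0598 without replicate 5 of the psilocybin group (0.25 without replicate 7 of PFC psilocybin 3 h), and Kcns1 for time in hypothalamus psilocybin, at 0.0300 within the first pools. Members under about 2 CPM, such as Kcnj5 in PFC, rest on few reads and are limited by depth.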
